A study of Homo sapiens with 48 samples.

Results

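The mRNAs and splicing events of 10 genes that encode heterogeneous nuclear ribonucleoproteins (hnRNPs) and polypyrimidine tract binding (PTB) proteins were followed: HNRNPA1, HNRNPA2B1, HNRNPC, HNRNPD, HNRNPH1, HNRNPK, HNRNPL, HNRNPU, PTBP1 and PTBP2. They were taken by name, 10 of the 19847 genes in the count table and 213 of the 363278 events in the splicing table. The cells were IMR90 ER:RAS, human lung fibroblasts expressing HRAS G12V joined to the hormone-binding part of the estrogen receptor, so that 4-hydroxy-tamoxifen (4OHT) switches RAS on and triggers senescence. After 6 days in 4OHT or in its solvent DMSO the cells were transfected with a non-targeting siRNA (siNT) or with siRNAs against SF3B1, a subunit of the U2 snRNP that recognises the branch point, or RBM39, a splicing factor related to U2AF, and were collected 2 days later in 0.5% serum. All 48 libraries carried the ER:RAS construct. The 6 groups (DMSO siNT, 4OHT siNT, DMSO siSF3B1, 4OHT siSF3B1, DMSO siRBM39, 4OHT siRBM39) held 8 libraries each, with 2 siRNAs and 4 replicates per siRNA. For 4 libraries titled siNT2 in 4OHT another label names siNT1, and both are controls of the same group. The study's methods describe replicates of its cell culture work as independent of each other, and the labels add nothing on this. The p-values measure the spread between these libraries. No empty-vector cells given 4OHT were analysed here, so 4OHT against DMSO also carries any effect of the drug itself.

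hnRNPs coat nascent transcripts and bind short motifs near splice sites, where they often keep the splicing machinery away from an exon. PTB proteins bind pyrimidine-rich RNA and repress exons flanked by it. Many of these genes control their own amount through splicing: a form that shifts the reading frame carries a premature stop codon and is degraded by nonsense-mediated decay. PTBP1 does this by skipping a 34-nt exon of its own transcript, and in non-neuronal cells PTBP1 also causes skipping of the matching 34-nt exon of its paralogue PTBP2.

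The sequences of the exons on which the splicing results turn are given here, 60 bases of upstream intron and 10 bases of downstream intron in lower case with the exon in capitals, read 5′ to 3′ on the strand of the gene. They were read from GRCh37 at the annotated exon (GENCODE v44lift37) of the same gene with the same length and the same flanking intron lengths as in the splicing table.
PTBP1 34-nt exon, chr19:807809-807912, plus strand: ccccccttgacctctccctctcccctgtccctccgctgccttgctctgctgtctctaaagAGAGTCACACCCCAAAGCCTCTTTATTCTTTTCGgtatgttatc
PTBP2 34-nt exon, chr1:97271915-97272018, plus strand: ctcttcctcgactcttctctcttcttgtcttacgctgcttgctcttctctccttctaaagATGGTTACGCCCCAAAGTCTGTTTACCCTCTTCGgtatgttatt
PTBP1 57-nt exon, chr19:805453-805579, plus strand: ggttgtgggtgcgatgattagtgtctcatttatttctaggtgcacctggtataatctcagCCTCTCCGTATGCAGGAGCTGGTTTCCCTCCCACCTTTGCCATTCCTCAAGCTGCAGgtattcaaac
HNRNPH1 50-nt exon, chr5:179042537-179042656, minus strand: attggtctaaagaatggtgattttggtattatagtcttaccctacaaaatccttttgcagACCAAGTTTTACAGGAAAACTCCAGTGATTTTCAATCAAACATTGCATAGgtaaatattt
HNRNPA2B1 36-nt exon, chr7:26237441-26237546, minus strand: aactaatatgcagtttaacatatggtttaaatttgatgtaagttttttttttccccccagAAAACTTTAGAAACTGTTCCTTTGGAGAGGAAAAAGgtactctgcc
The PTBP1 and PTBP2 34-nt exons are the same at 25 of 34 positions (73.5%), and their length shifts the reading frame when they are skipped. In the annotation 6 of 8 PTBP1 transcripts with the exon are protein coding, whereas both transcripts that skip it are marked as nonsense-mediated decay targets. For PTBP2 9 of 12 transcripts with the exon are protein coding, and of the 6 that skip it none is coding and 3 are marked as decay targets. The HNRNPH1 50-nt exon ends with the stop codon in each of the 11 coding transcripts that hold it. The HNRNPA2B1 36-nt exon keeps the frame and adds the residues that distinguish isoform B1 from A2, and the PTBP1 57-nt exon also keeps the frame. The letters TCTT were counted over the 100 bases before each exon, on the strand of the gene and with overlapping matches. There were 6 matches before the PTBP2 34-nt exon and 1 each before the PTBP1 34-nt and HNRNPH1 50-nt exons. The PTBP1 57-nt and HNRNPA2B1 36-nt exons had 0. Of exons described below, a PTBP2 exon of 78 nt had 3, and HNRNPA2B1 exons of 81 and 120 nt had 2 and 0. At least 1 match is present before 60.3% of 219311 annotated internal exons. Of them 9.19% have 3 or more, and 0.202% have 6 or more. These matches describe letters only.

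The depth was 31467221 to 52734636 counts per library. SF3B1 mRNA fell by 90.9% in DMSO and 91.7% in 4OHT with its siRNAs, and RBM39 mRNA fell by 83.9% and 86.5% with its own. RBM39 mRNA rose with siSF3B1 (log2 fold change 0.83 in DMSO and 1.06 in 4OHT), and SF3B1 mRNA rose with siRBM39 (0.46 and 0.29). All 9 fibroblast markers were present, and their sum was 47074 to 81208 CPM (counts scaled to library size) over the 3 DMSO groups and 18350 to 23176 CPM over the 3 4OHT groups. In siNT cells 4OHT lowered COL1A1, COL1A2, COL3A1 and DCN, while VIM differed by -0.0041 on the log2 scale. The other markers of the 9 (THY1, PDGFRB, FN1 and LUM) are not described singly, so the sum does not show the direction of each. The 4 epithelial markers summed to 35.8 to 157 CPM, highest in 4OHT siRBM39, and the 2 endothelial markers with a row to at most 7.98 CPM. The 3 leukocyte markers summed to 33.1 to 47.5 CPM in DMSO and 71.3 to 114 CPM in 4OHT, nearly all of it CD68, and PTPRC and CD3E had 69 and 4 counts over all libraries. The part of these shifts in any value below was not tested. In bulk RNA, fewer cells of a type and less RNA per cell cannot be told apart. The fourth 4OHT replicate of the siRNA siRBM39-08 stood apart from its group for HNRNPA1, HNRNPK and HNRNPL. Values without it are given only where leaving it out changed the call of a gene, so those of HNRNPL include it.

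Levels differed widely among the 10 genes. By cRPKM, reads scaled to mappable gene length and library size, HNRNPK was highest in DMSO siNT at 204 ± 4.48 (SD, n = 8) and PTBP2 lowest at 5.79 ± 0.331. Between them lay HNRNPA1 (134), HNRNPU (132) and HNRNPA2B1 (125), whose neighbours in this order overlapped between libraries. HNRNPL (94.3), HNRNPC (93.6) and HNRNPH1 (91.8) also overlapped their neighbours, while PTBP1 (79.7) and HNRNPD (37.1) stood clear of them. HNRNPA1, HNRNPA2B1, HNRNPC and HNRNPK have near-identical processed pseudogenes, which could take or lend reads, so their levels are less certain than those of the others.

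**Figure D1:**
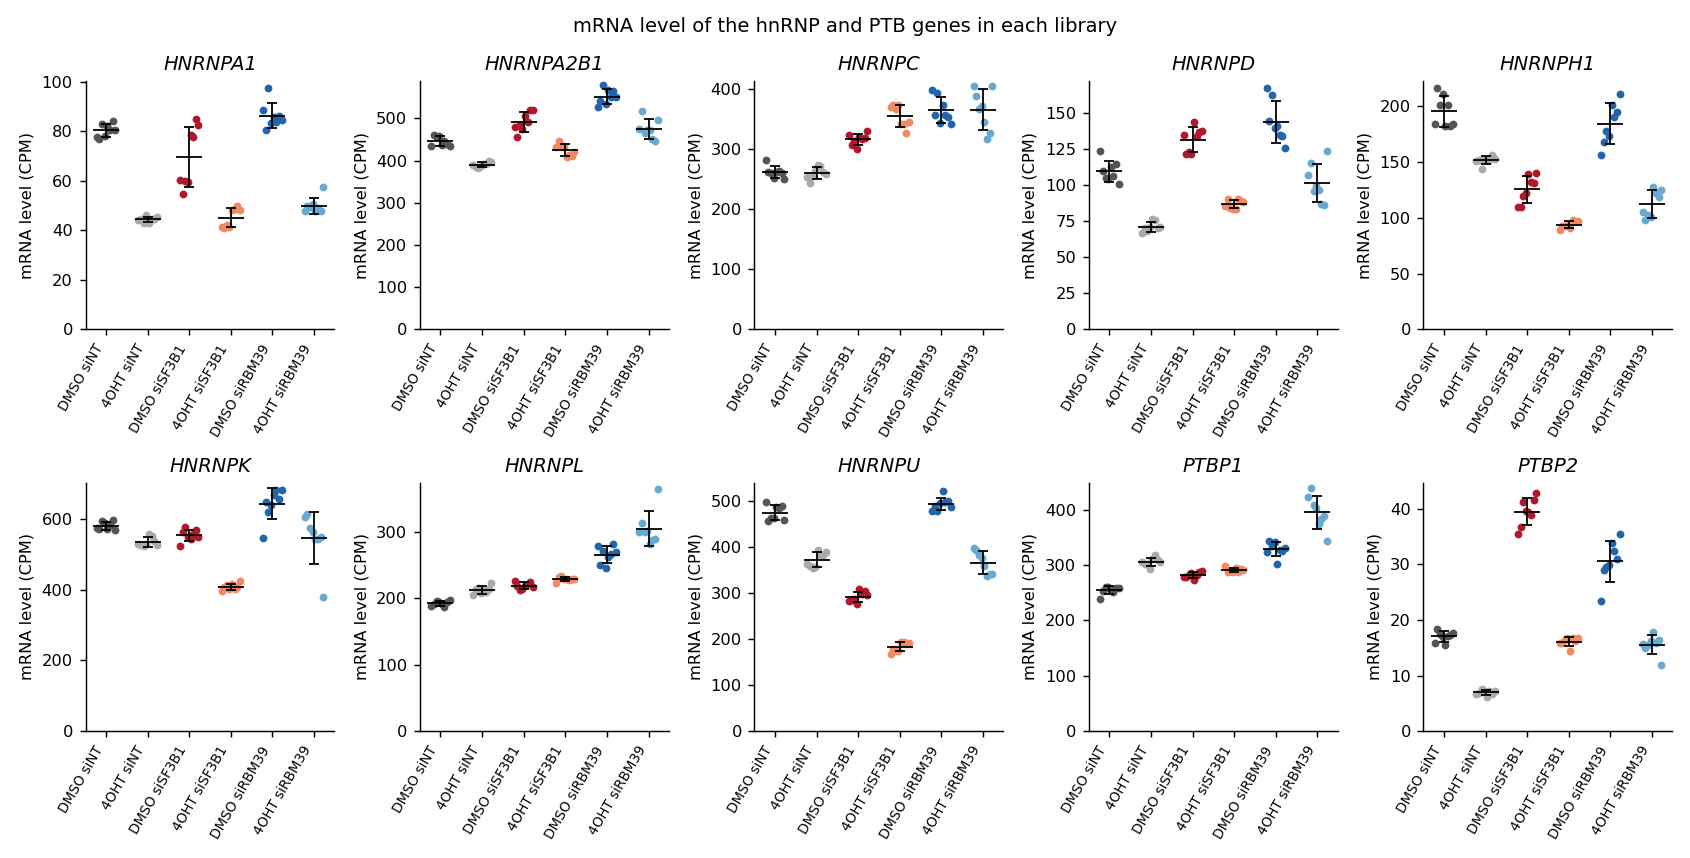
mRNA level of each gene in CPM (vertical axis, starting at 0, with its own scale per gene) in each library (points, 8 per group), with the mean and SD of the group as black lines. PTBP2 is higher in the siSF3B1 and siRBM39 libraries than in siNT within each treatment, HNRNPU and HNRNPH1 are lower with siSF3B1, and HNRNPA1 in the DMSO siSF3B1 group forms 2 sets.

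PTBP2 moved most of the 10 genes. Its mRNA was 15.5 to 18.3 CPM (median 17.2) in DMSO siNT, 35.5 to 42.8 (median 39.5) in DMSO siSF3B1 and 23.3 to 35.5 (median 30.4) in DMSO siRBM39. The 4OHT libraries had 6.08 to 7.62 CPM (median 7.05) with siNT, 14.5 to 16.8 (median 16.3) with siSF3B1 and 11.9 to 17.8 (median 15.8) with siRBM39. In each treatment every knockdown library lay above every siNT library. PTBP2 rose 2.32-fold with siSF3B1 in DMSO (log2 fold change 1.21 ± 0.0616 SE, adjusted p = 2.15e-22) and 2.32-fold in 4OHT (1.21 ± 0.0642, adjusted p = 6.4e-22). With siRBM39 it rose 1.79-fold in DMSO (0.84 ± 0.0613, adjusted p = 5.4e-16) and 2.24-fold in 4OHT (1.16 ± 0.0641, adjusted p = 1.43e-20). RAS activation lowered it 2.45-fold in siNT cells (adjusted p = 2.05e-23), the largest change among the 10 genes in that comparison. These p-values, and those below for mRNA, come from edgeR's quasi-likelihood test over all 9991 genes tested with Benjamini-Hochberg adjustment.

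The 34-nt exon of PTBP2 was covered by few reads, and its inclusion is given below the coverage limit set for the other events. Inclusion is expressed as PSI, the percentage of informative reads that include the sequence. It was 8.36% to 54.0% (median 25.5%, 8 to 18 reads per library) in DMSO siNT, 59.3% to 100% (median 77.4%) in DMSO siSF3B1 and 57.2% to 80.7% (median 69.3%) in DMSO siRBM39. All 16 DMSO knockdown libraries were above all 8 siNT libraries. In 4OHT siNT it was 0% to 68.7% (median 19.6%) over the 7 libraries with a value, each with at most 8 reads. It was 37.3% to 78.1% (median 53.0%) in 4OHT siSF3B1 and 54.9% to 81.3% (median 63.2%) in 4OHT siRBM39, and in each the range overlapped that of siNT. The mean was higher by 51.0 points with siSF3B1 (exact p = 0.000155) and by 40.2 points with siRBM39 (exact p = 0.000155, the smallest these libraries can give) in DMSO, and by 33.3 points (exact p = 0.0112) and 40.9 points (exact p = 0.00155) in 4OHT. These are two-sided exact permutation tests chosen after the data were seen, in a family of 7, and their adjusted p-values were 0.000272, 0.000272, 0.0131 and 0.00218. For 4OHT against DMSO with siNT the difference was -4.16 points (exact p = 0.729). With the reads of a group pooled, PSI was 30.7% of 100 reads in DMSO siNT, 76.6% of 185 in DMSO siSF3B1 and 69.2% of 213 in DMSO siRBM39. Pooled over the 4OHT groups it was 24.9% of 34 reads, 55.5% of 82 and 66.3% of 94 in the same order. A 78-nt PTBP2 exon, chr1:97278585-97278662 in GRCh37, was included in 100% of 123 pooled reads in DMSO siNT, 69.0% of 288 in DMSO siSF3B1 and 99.3% of 296 in DMSO siRBM39. In 4OHT it was 100% of 46, 81.6% of 122 and 98.8% of 156 reads, lowest with siSF3B1 in both treatments. This exon was chosen after its values were seen and has no test. None of the 30 PTBP2 events reached the coverage limit in each library, so none entered the test over all events.

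PTBP1, the main PTB protein of non-neuronal cells, changed less. Its mRNA was 239 to 261 CPM (median 257) in DMSO siNT, 273 to 289 (median 282) in DMSO siSF3B1 and 302 to 344 (median 329) in DMSO siRBM39. It was 293 to 318 CPM (median 305) in 4OHT siNT, 286 to 297 (median 290) in 4OHT siSF3B1 and 343 to 438 (median 395) in 4OHT siRBM39. The siRBM39 libraries lay above all siNT libraries in both treatments. PTBP1 rose 1.29-fold with siRBM39 in DMSO and in 4OHT (adjusted p = 4.09e-13 and 2.02e-13). With siSF3B1 it rose 1.11-fold in DMSO (adjusted p = 0.000103) and fell by 4.9% in 4OHT (adjusted p = 0.0425). The fall in 4OHT was lost without replicate 2 (adjusted p = 0.18), without replicate 3 (0.14), with the siNT1 controls alone (0.16) and with a lower count limit (0.084). The siSF3B1 effects in the 2 treatments differed by -0.22 ± 0.0465 on the log2 scale (adjusted p = 0.000164). RAS activation raised PTBP1 1.2-fold (adjusted p = 7.99e-10).

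Of the 6 PTBP1 events tested, 3 changed with siSF3B1 and 1 of these, the 57-nt exon, also with siRBM39, in both treatments. Over all tested events 19.8% and 23% were called with siSF3B1 in DMSO and 4OHT, and 5.69% and 6.26% with siRBM39. Inclusion of the 34-nt exon was 89.0% to 97.2% (median 93.7%) in DMSO siNT and 76.5% to 92.2% (median 83.9%) in DMSO siSF3B1. It was 88.0% to 97.3% (median 94.1%) in 4OHT siNT and 69.3% to 86.9% (median 80.3%) in 4OHT siSF3B1, where the groups did not overlap. The exon fell by 9.45 ± 2.04 points in DMSO (adjusted p = 0.000423) and fell by 14.3 ± 2.17 points in 4OHT (adjusted p = 1.7e-06) with siSF3B1, in limma fits over all exons and introns tested. With siRBM39 it was 95.2 ± 2.38% in DMSO and 97.7 ± 1.69% in 4OHT (SD, n = 8), and the difference of 3.58 points in 4OHT (adjusted p = 0.00682) was under the 5 points required for a call. The 57-nt exon was lower with both knockdowns. Its mean was 94.5% in DMSO siNT, 86.0% with siSF3B1 and 87.5% with siRBM39, and in 4OHT 94.5%, 79.7% and 84.9%. In 4OHT it fell by 14.7 ± 2.55 points with siSF3B1 (adjusted p = 5.51e-08) and fell by 9.58 ± 1.89 points with siRBM39 (adjusted p = 6.31e-05), and all 8 knockdown libraries were below all siNT libraries in each. In DMSO it fell by 8.5 ± 1.97 points with siSF3B1 (adjusted p = 0.000157), a call that siSF3B1-16 alone did not give (-4.84 points, adjusted p = 0.052), and fell by 7.07 ± 1.09 points with siRBM39 (adjusted p = 0.00199).

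**Figure D2:**
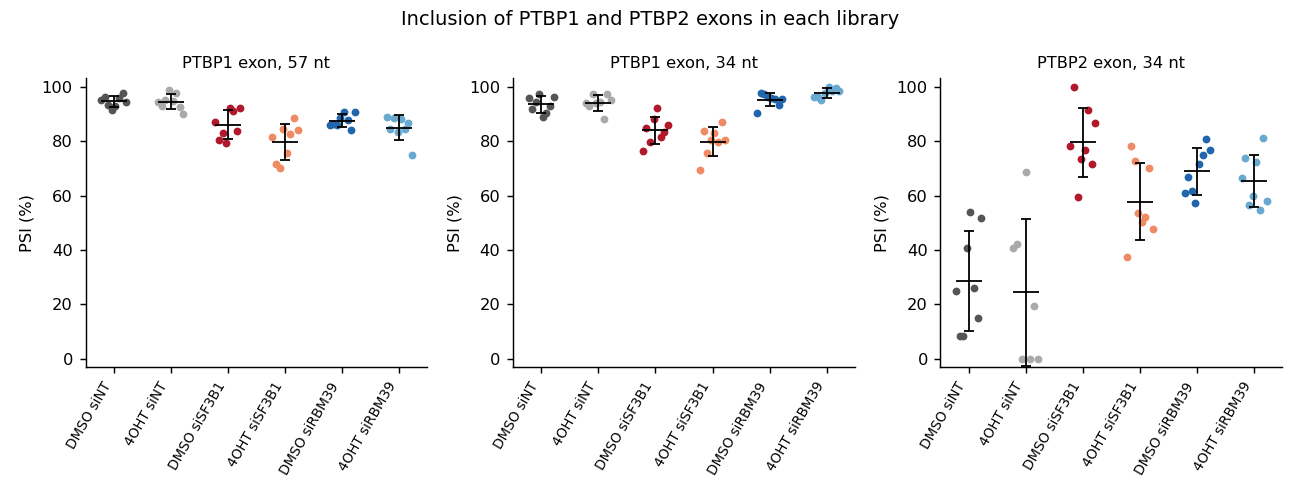
PSI (vertical axis, %) of the PTBP1 57-nt and 34-nt exons and the PTBP2 34-nt exon in each library (points, 8 per group, 7 with a value for PTBP2 in 4OHT siNT), with the mean and SD of the group as black lines. The PTBP1 34-nt exon is lower with siSF3B1 and not with siRBM39, and the PTBP2 34-nt exon is higher with both knockdowns, with wide spread where reads are few.

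Introns of PTBP1 were retained with siSF3B1. The 93-nt intron at chr19:804439-804531 (GRCh37, plus strand) is shown with 10 exonic bases on either side in lower case, since it was almost completely removed in control cells.
PTBP1 93-nt intron: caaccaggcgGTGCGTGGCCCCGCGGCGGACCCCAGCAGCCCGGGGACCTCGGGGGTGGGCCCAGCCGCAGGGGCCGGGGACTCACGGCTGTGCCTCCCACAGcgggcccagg
It was retained in 0% to 1.96% of reads in DMSO siNT and 0% to 0.93% in 4OHT siNT, and in 8.2% to 21.3% (median 10.98%) in DMSO siSF3B1 and 10.8% to 27.3% (median 14.7%) in 4OHT siSF3B1. The siRBM39 libraries reached at most 2.04%. Retention rose by 11.4 ± 1.49 points in DMSO (adjusted p = 9.99e-14) and 16.7 ± 1.88 points in 4OHT (adjusted p = 6.04e-17), and every siSF3B1 library was above every siNT library. To be tested, an event had to differ by 5 points between libraries, and this intron did so only through the siSF3B1 libraries. A 126-nt PTBP1 intron went from 0.13% to 1.47% in DMSO and from 0.17% to 2.55% in 4OHT, less than the 5 points required. Another 7 PTBP1 introns had unequal reads at their 2 exon-intron junctions in at least 1 library and were left out of the main test. When that filter was lifted, 5 of the 7 rose with siSF3B1 in 4OHT and 3 in DMSO. Of all 3309 introns outside the filter, 51.5% rose in 4OHT and 43.5% in DMSO, and over the 10 genes 8 and 5 of 24 such introns did, so these counts are a description. A 1312-nt intron went from 6.5% to 28.9%, an 83-nt intron from 0.7% to 19.3%, a 457-nt intron from 2.2% to 16.0%, a 73-nt intron from 2.8% to 11.8% and a 399-nt intron from 0.5% to 8.2%. In DMSO the 1312-nt, 83-nt and 457-nt introns rose, and none of the 7 was called with siRBM39, where 13.3% and 14.1% of all such introns rose in DMSO and 4OHT.

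HNRNPH1 binds runs of G and can enhance or silence nearby exons. Its mRNA was 182 to 216 CPM (median 193) in DMSO siNT, 109 to 140 (median 127) in DMSO siSF3B1 and 157 to 211 (median 184) in DMSO siRBM39. In 4OHT it was 144 to 156 CPM (median 152) with siNT, 88.8 to 98.0 (median 93.1) with siSF3B1 and 97.8 to 128 (median 112) with siRBM39. The siSF3B1 libraries lay below all siNT libraries in both treatments, and the siRBM39 libraries only in 4OHT. With siSF3B1 HNRNPH1 fell by 35.7% in DMSO (adjusted p = 1.34e-13) and fell by 38% in 4OHT (adjusted p = 8.37e-15), and with siRBM39 it fell by 25.8% in 4OHT (adjusted p = 1.84e-08). In DMSO the siRBM39 difference was -0.09 on the log2 scale (adjusted p = 0.23), and siRBM39-06 alone gave -0.21 (adjusted p = 5.18e-05) and siRBM39-08 alone 0.03. The siRBM39 effects differed between treatments by -0.35 ± 0.0816 (adjusted p = 0.00222), a call lost with the siNT1 controls alone (adjusted p = 0.096) and without replicate 3 (adjusted p = 0.0504). With RAS activation HNRNPH1 fell by 22.4% (adjusted p = 1.95e-07).

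With siSF3B1 the 50-nt exon of HNRNPH1 changed more than any other tested event of the 10 genes. Its PSI was 79.4% to 88.3% (median 86.8%) in DMSO siNT, 33.4% to 47.3% (median 41.9%) in DMSO siSF3B1 and 65.4% to 81.7% (median 71.7%) in DMSO siRBM39. With 4OHT it was 78.3% to 92.2% (median 83.6%) with siNT, 24.4% to 46.8% (median 33.2%) with siSF3B1 and 62.3% to 80.8% (median 68.0%) with siRBM39. The siSF3B1 libraries were far below all others, and 7 of 8 siRBM39 libraries were below all siNT libraries in each treatment. The exon fell by 44.8 ± 2.46 points with siSF3B1 in DMSO (adjusted p = 4.52e-15) and fell by 49.5 ± 3.44 points in 4OHT (adjusted p = 1.74e-16). With siRBM39 it fell by 12.5 ± 2.35 points in DMSO (adjusted p = 0.0011) and fell by 15.4 ± 2.8 points in 4OHT (adjusted p = 0.000125). Between 82 and 325 reads per library stood behind these values.

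Use of alternative 5′ splice sites in another HNRNPH1 exon moved with the same knockdowns. The form extended by 42 bases beyond the shortest one made up 7.37% to 20.4% (median 16.7%) of reads in DMSO siNT, 44.1% to 62.7% (median 50.7%) in DMSO siSF3B1 and 22.04% to 31.1% (median 28.4%) in DMSO siRBM39, with no overlap between either knockdown and siNT. It rose by 36.01 ± 2.57 points with siSF3B1 in DMSO (adjusted p = 3.46e-12) and 25.6 ± 2.97 points in 4OHT (adjusted p = 1.56e-07). With siRBM39 it rose by 11.8 ± 1.79 points in DMSO (adjusted p = 0.00122) and 15.9 ± 3.37 points in 4OHT (adjusted p = 0.000813). The form extended by 12 bases fell by 35.8 points in DMSO and fell by 24.7 in 4OHT with siSF3B1, and fell by 11.7 and fell by 15.8 points with siRBM39, the last lost without replicate 3 (-13.4 points, adjusted p = 0.051). Both forms are shares of the same reads, so these are not separate events. Introns of HNRNPH1 went both ways. A 149-nt intron, chr5:179044651-179044799 in GRCh37, went from 1.32 ± 0.95% in DMSO siNT to 11.2 ± 3.73% with siSF3B1 (adjusted p = 7.94e-10) and from 1.85 ± 1.09% to 18.3 ± 5.75% in 4OHT (adjusted p = 5.63e-12). A 206-nt intron, chr5:179048037-179048242, was retained in 51.8 ± 9.14% of reads in DMSO siNT and fell to 26.5 ± 6.41% with siSF3B1 (adjusted p = 9.53e-06). In 4OHT it fell from 44.5% to 33.1% (adjusted p = 0.0356), and this call was lost without replicate 3 (adjusted p = 0.23), without replicate 4 (0.18) and under 5 other settings. A 92-nt intron with unequal junction reads in 8 libraries went from 28.5% to 47.6% with siSF3B1 and to 36.9% with siRBM39 in DMSO, and from 34.3% to 54.6% and 47.1% in 4OHT, and each of these differences passed once the balance filter was lifted.

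**Figure D3:**
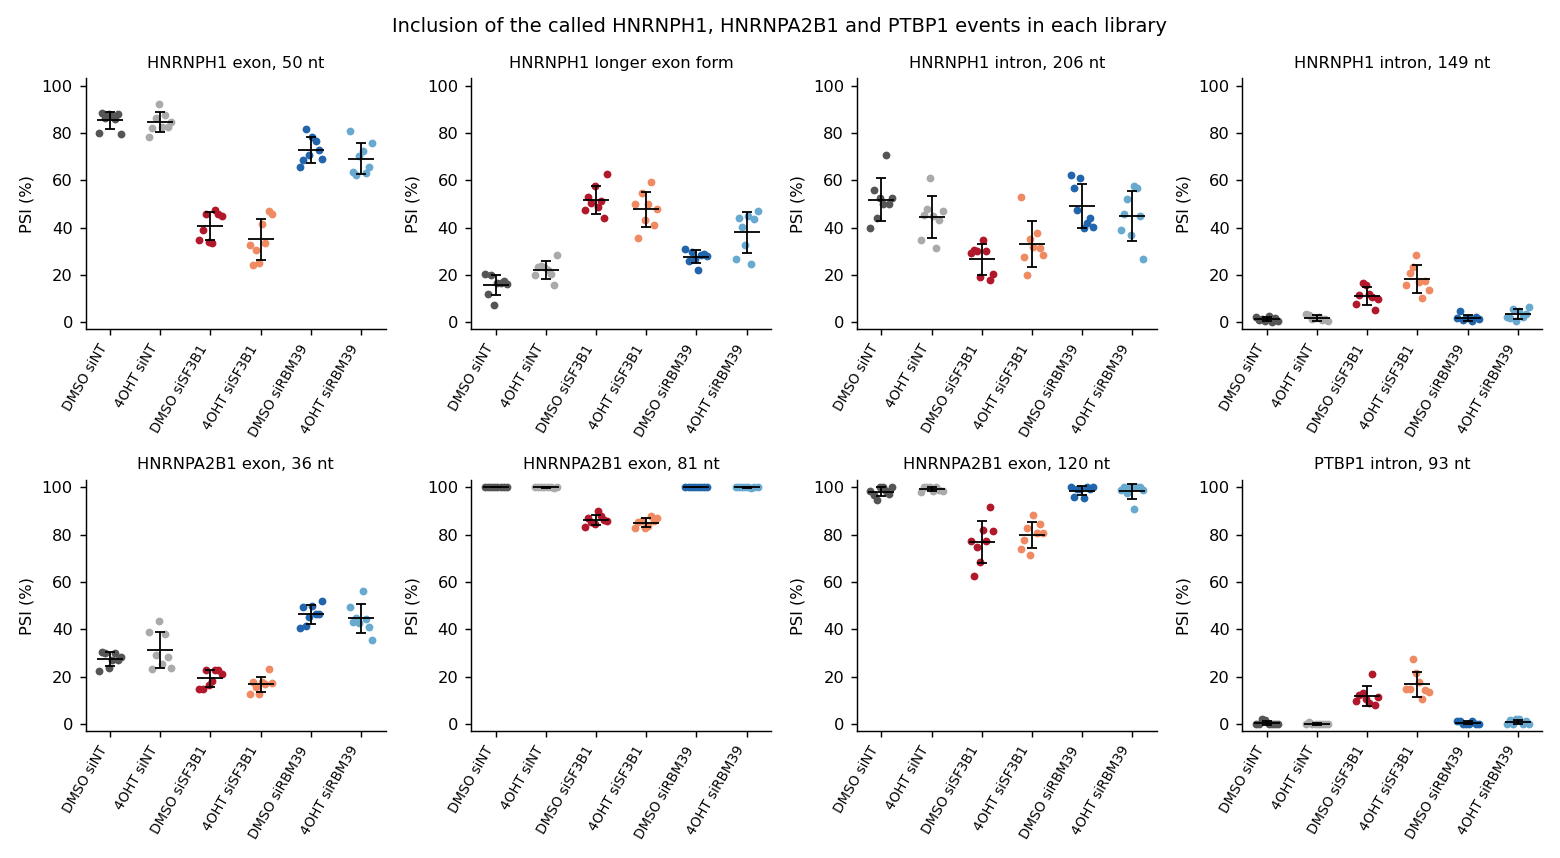
PSI (vertical axis, %) of 8 called HNRNPH1, HNRNPA2B1 and PTBP1 events in each library (points, 8 per group), with the mean and SD of the group as black lines. Group means with siSF3B1 differ from siNT in every panel, with overlap for the HNRNPH1 206-nt intron in 4OHT and the HNRNPA2B1 36-nt exon in DMSO. The HNRNPA2B1 36-nt exon is lower with siSF3B1 and higher with siRBM39, where the 81-nt exon stays at or above 99.6%.

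HNRNPA2B1, a relative of HNRNPA1 that binds UAG motifs, changed by at most 1.24-fold in these comparisons. It was 436 to 460 CPM in DMSO siNT and rose 1.1-fold with siSF3B1 (adjusted p = 7.77e-05) and 1.24-fold with siRBM39 (adjusted p = 1e-11) in DMSO. In 4OHT it was 381 to 398 CPM with siNT and rose 1.09-fold with siSF3B1 (adjusted p = 0.000372) and 1.22-fold with siRBM39 (adjusted p = 6.7e-11). The siSF3B1 rise in 4OHT was not called with siSF3B1-16 alone (0.05, adjusted p = 0.11). With RAS activation it fell by 12.5% (adjusted p = 1.95e-07).

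The 36-nt exon of HNRNPA2B1 moved in opposite directions with the 2 knockdowns. Its PSI was 22.5% to 30.2% (median 27.8%) in DMSO siNT, 14.9% to 22.98% (median 19.6%) in DMSO siSF3B1 and 40.7% to 51.9% (median 46.3%) in DMSO siRBM39. In 4OHT it was 23.4% to 43.6% (median 28.8%) with siNT, 12.8% to 23.1% (median 17.1%) with siSF3B1 and 35.5% to 56.3% (median 43.8%) with siRBM39. With siSF3B1 it fell by 8.12 ± 1.63 points in DMSO (adjusted p = 0.00718) and fell by 14.5 ± 2.96 points in 4OHT (adjusted p = 6.42e-06), and rose with siRBM39 by 18.97 ± 1.74 points in DMSO (adjusted p = 2.19e-05) and 13.4 ± 3.47 points in 4OHT (adjusted p = 0.0026). The smaller fall in DMSO was not called with siSF3B1-16 alone (adjusted p = 0.09) or against siNT1 alone (0.059), and the rise in 4OHT not against siNT1 alone (0.091). Compared directly, the siSF3B1 libraries differed from the siRBM39 libraries by -27.1 points in DMSO and -27.9 points in 4OHT, with no overlap (two-sided exact permutation p = 0.000155 for each, adjusted p = 0.000272 in the family of 7). The other 2 called exons changed with siSF3B1 and not with siRBM39. The 81-nt exon (chr7:26236021-26236101) was included in 100% of reads in each DMSO siNT library and in 83.4% to 89.9% in DMSO siSF3B1, and it fell by 13.8 ± 0.717 points (adjusted p = 2.65e-27) and in 4OHT fell by 14.9 ± 0.684 points (adjusted p = 5.09e-28). The 120-nt exon (chr7:26233195-26233314), which encodes part of the glycine-rich domain, fell from 98.2 ± 1.95% to 76.9 ± 8.9% in DMSO (adjusted p = 1.5e-09) and from 99.2 ± 0.836% to 79.96 ± 5.46% in 4OHT (adjusted p = 1.23e-10). With siRBM39 the 81-nt exon was at 99.6% or more in each library, and the 120-nt exon at means of 98.5% in DMSO and 98.3% in 4OHT. The 81-nt exon differed by the 5 points between libraries needed for a test only through the siSF3B1 libraries. A 156-nt intron with unequal junction reads in many libraries was retained in 36.8% of reads in DMSO siNT and 15.9% with siSF3B1, and in 24.8% and 18.2% in 4OHT, and both falls passed once the balance filter was lifted (adjusted p = 1.04e-06 and 0.043), where 1.69% and 1.6% of all introns outside the filter fell.

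HNRNPA1, a repressor of exons and a shuttling mRNA-binding protein, changed most with RAS activation. Its mRNA was 77.1 to 84.1 CPM (median 80.7) in DMSO siNT and 42.9 to 46.2 CPM (median 44.6) in 4OHT siNT, without overlap, and fell by 44.7% (log2 fold change -0.86 ± 0.0646, adjusted p = 1.35e-16). With siSF3B1 the 2 siRNAs gave different levels. In DMSO siSF3B1-13 libraries had 54.7 to 60.6 CPM and siSF3B1-16 libraries 77.6 to 84.8, and in 4OHT they had 40.9 to 42.3 and 48.2 to 50.1. The log2 fold change over both was -0.21 ± 0.064 in DMSO (adjusted p = 0.00395), where siSF3B1-13 alone gave -0.47 and siSF3B1-16 alone -0.0047 (adjusted p = 0.93), and the call was also lost against siNT1 alone (adjusted p = 0.0515). In 4OHT it was 0.02 (adjusted p = 0.765), with -0.10 for siSF3B1-13 (adjusted p = 0.02) and 0.10 for siSF3B1-16 (adjusted p = 0.029). With siRBM39 the change of 0.10 in DMSO did not pass (adjusted p = 0.196), though it did with one group per siRNA (0.10, adjusted p = 0.00865) and with siRBM39-06 alone (0.12, adjusted p = 0.00723). The change of 0.17 in 4OHT passed (adjusted p = 0.0232) but was lost without the library that stood apart (0.14, adjusted p = 0.059), without replicate 1 (0.102), without replicate 2 (0.054), without replicate 4 (0.094) and with the controls of either siNT alone. The splicing table lists 2 events for HNRNPA1 and 4 for HNRNPK, none with a test.

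HNRNPU, a large nuclear protein that binds RNA and chromatin, fell with siSF3B1. Its mRNA was 457 to 499 CPM (median 474) in DMSO siNT, 277 to 308 (median 291) in DMSO siSF3B1 and 479 to 523 (median 492) in DMSO siRBM39. With 4OHT it was 354 to 395 CPM (median 374) with siNT, 169 to 195 (median 184) with siSF3B1 and 338 to 398 (median 368) with siRBM39. The siSF3B1 libraries lay below every siNT library. With siSF3B1 HNRNPU fell by 38.5% in DMSO (log2 fold change -0.70 ± 0.0369, adjusted p = 8.09e-22) and fell by 50.9% in 4OHT (-1.03 ± 0.0372, adjusted p = 3.51e-28), and the effects differed by -0.32 ± 0.052 (adjusted p = 2.04e-06). With siRBM39 neither the change of 0.06 in DMSO (adjusted p = 0.222) nor that of -0.03 in 4OHT (adjusted p = 0.566) passed. With one group per siRNA the DMSO change was called (adjusted p = 0.0201), and with siRBM39-08 alone the 4OHT change was (-0.13, adjusted p = 0.00128). The difference of the siRBM39 effects between treatments was called in those same settings (-0.08, adjusted p = 0.0283, and -0.21, adjusted p = 0.00143) and not in the main test. With RAS activation HNRNPU fell by 21.5% (adjusted p = 6.84e-12). Of its 33 events 1 was tested, a 74-nt exon at 100% in each siNT group and at 98.2 ± 2.63% and 96.8 ± 5.88% with siSF3B1 in DMSO and 4OHT, which was not called except with siSF3B1-13 alone in 4OHT (-6.32 points, adjusted p = 0.00252).

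HNRNPK, which binds C-rich RNA, fell with siSF3B1 in 4OHT. It was 524 to 558 CPM (median 528) in 4OHT siNT and 397 to 424 (median 407) in 4OHT siSF3B1, and fell by 23.6% without overlap (adjusted p = 3.61e-09). In DMSO the difference was -0.07 ± 0.0511 (adjusted p = 0.21), and it passed with siSF3B1-13 alone (0.026) and in the fit without the library that stood apart (0.044), and the 2 effects differed by -0.32 (adjusted p = 0.000411). With siRBM39 it rose 1.11-fold in DMSO (adjusted p = 0.0173), a call lost without replicate 2 (adjusted p = 0.14), without replicate 3 (0.064), with siRBM39-06 alone (0.052) and with either set of siNT controls alone (0.12 and 0.11). In 4OHT siRBM39 it ranged from 379 to 615 CPM, the lowest value being the library that stood apart, and the difference was 0.03 with it (adjusted p = 0.634) and 0.09 without it (adjusted p = 0.016). With RAS activation it fell by 7.91% (adjusted p = 0.0321), a call lost without replicate 1, 2 or 3 (adjusted p = 0.071, 0.083 and 0.17), with either set of siNT controls alone (0.16 and 0.27) and with a lower count limit (0.51).

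HNRNPC, HNRNPD and HNRNPL rose with both knockdowns in both treatments. HNRNPC binds uridine tracts and keeps cryptic exons out of mRNA. It was 251 to 282 CPM (median 262) in DMSO siNT and 243 to 274 (median 261) in 4OHT siNT, and no difference between these was called (adjusted p = 0.876). It rose 1.21-fold and 1.36-fold with siSF3B1 in DMSO and 4OHT, and 1.39-fold and 1.41-fold with siRBM39, with every knockdown library above every siNT library (adjusted p from 7.78e-14 to 1.54e-07). HNRNPD, which binds AU-rich elements and speeds mRNA decay, was 101 to 124 CPM (median 108) in DMSO siNT and 66.6 to 76.8 (median 70.4) in 4OHT siNT, and fell by 35.1% (adjusted p = 1.86e-13). It rose 1.2-fold and 1.22-fold with siSF3B1, and 1.31-fold and 1.43-fold with siRBM39 (adjusted p from 3.01e-10 to 8.11e-05). HNRNPL, which binds CA repeats, was 187 to 198 CPM (median 193) in DMSO siNT and rose 1.11-fold in 4OHT siNT (adjusted p = 0.000195). With siRBM39 it rose 1.38-fold in DMSO (adjusted p = 1.18e-15) and 1.43-fold in 4OHT (adjusted p = 2.04e-17). Its rises with siSF3B1 were 1.14-fold in DMSO (adjusted p = 5.02e-06) and 1.08-fold in 4OHT (adjusted p = 0.00595), and the last was lost without replicate 1 (adjusted p = 0.203), with siSF3B1-16 alone (0.16) and with either set of siNT controls alone (0.052 and 0.076). Each of these 3 genes had 1 tested event, a 46-nt exon of HNRNPC and an intron each of HNRNPD and HNRNPL, with group means of at most 4.4%, and none was called. In 4OHT the HNRNPC exon differed by -3.55 points with siRBM39 (adjusted p = 0.035, under the 5 points required), and against siNT1 alone it was called with siRBM39 (-6.09 points, adjusted p = 0.0204) and siSF3B1 (-5.07 points, adjusted p = 0.0228).

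**Figure D4:**
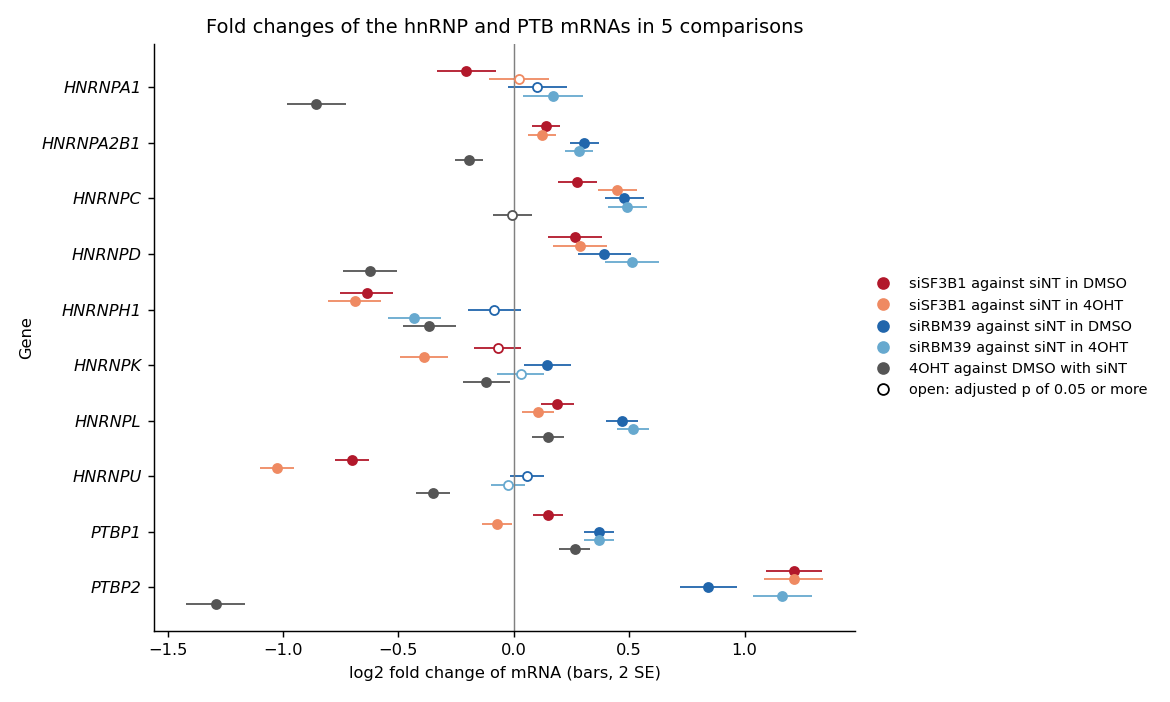
log2 fold change (horizontal axis) of each of the 10 mRNAs in 5 comparisons (colours), with bars of 2 SE. Filled points passed an adjusted p of 0.05. PTBP2 lies to the right in the 4 knockdown comparisons and to the left for 4OHT against DMSO, and HNRNPU and HNRNPH1 lie to the left with siSF3B1.

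Counted over the 10 genes, 9 changed with siSF3B1 in DMSO (6 higher, 3 lower), while 72.7% of all 9991 genes did (36.5% higher, 36.2% lower). In 4OHT 9 changed (5 higher, 4 lower), with 77% of all genes (39.4% and 37.6%). With siRBM39 7 rose and 0 fell in DMSO, where 46.1% of all genes changed (23.9% higher, 22.2% lower). In 4OHT 7 rose and 1 fell, where 56.4% of all genes changed (32.2% and 24.3%). The median log2 fold change of the 10 was 0.34 and 0.33 with siRBM39 in DMSO and 4OHT, beside 0.02 and 0.05 over all genes. With siSF3B1 it was 0.14 and 0.06, beside 0.02 and 0.03. With RAS activation 2 rose (PTBP1 and HNRNPL) and 7 fell, where 78.1% of all genes changed (39% and 39.1%), and the median was -0.27 beside -0.0019 over all genes. The comparisons with siNT in a treatment share their control libraries. The siSF3B1 effect differed between treatments for 5 of the 10 genes, more positive in 4OHT for HNRNPA1 and HNRNPC and more negative for HNRNPK, HNRNPU and PTBP1, with 37.8% of all genes (17.9% and 19.9%). The siRBM39 effect differed for 2, more positive for PTBP2 and more negative for HNRNPH1, with 14.1% (7.28% and 6.87%). Of these differences, those of HNRNPA1 and HNRNPC were lost without replicate 1, 2 or 3 (adjusted p from 0.064 to 0.21), and that of PTBP2 likewise (0.063 to 0.105). With 1 of the 2 SF3B1 siRNAs alone the difference was 0.11 for HNRNPA1 (adjusted p = 0.17) and 0.065 for HNRNPC (0.50). With 1 of the 2 RBM39 siRNAs alone it was 0.18 for PTBP2 (adjusted p = 0.15). Both siRNAs together gave 0.23, 0.17 and 0.32. Against siNT1 or siNT2 alone the call was lost for HNRNPA1 (adjusted p = 0.29 and 0.12), HNRNPC (0.051 and 0.22) and PTBP2 (0.19 and 0.070).

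Of the 213 events of the 10 genes 156 had a PSI in each library, 127 reached the coverage limit and 23 were tested: 11 exons, 7 introns, 3 alternative 3′ and 2 alternative 5′ splice site forms. Only events whose PSI differed by 5 points or more between libraries were tested, some of them through siSF3B1 libraries alone. Shares called therefore describe events that vary, for these genes and for all events. With siSF3B1 the same number, 11 of 23, was called in DMSO and in 4OHT (3 higher and 8 lower in each), where 19.8% and 23% of all 13839 tested events were called. With siRBM39 5 were called in each treatment (2 higher and 3 lower), where 5.69% and 6.26% of all events were. Each of these counts includes both 5′ splice site forms of HNRNPH1, which are shares of the same reads and not separate events. Of the 11 exons, 6 fell and 0 rose with siSF3B1 in each treatment, where 25.7% and 29% of all exons fell and 1.04% and 1.03% rose. With siRBM39 1 exon rose and 2 fell in each treatment, where 1.02% and 1.13% of all exons rose and 7.01% and 8.05% fell. The 12 events with no call had means of at most 4.4% or at least 95.8% in each group. None was called for RAS activation in limma (0.874% of all events were, and 2 of the 23 had an unadjusted p under 0.05). None was called for the difference of the siSF3B1 effects between treatments (0.325% of all, 6 of the 23 with an unadjusted p under 0.05) or of the siRBM39 effects (0.0289% of all, 1 of the 23).

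Other hnRNPs and RNA-binding splicing regulators were read as a list of 40 genes, 38 of them with enough counts for a test. With siSF3B1 17 rose and 14 fell in DMSO, where 36.5% of all genes rose and 36.2% fell, and 15 rose and 17 fell in 4OHT, where 39.4% rose and 37.6% fell. With siRBM39 15 rose and 4 fell in DMSO (23.9% and 22.2% of all genes), and 14 rose and 4 fell in 4OHT (32.2% and 24.3%). With RAS activation 8 rose and 23 fell (39% and 39.1% of all genes), with a median log2 fold change of -0.27 beside -0.0019 over all genes. Among those that fell with siSF3B1 in 4OHT, EWSR1 went from 136 to 53.0 CPM (log2 fold change -1.36, adjusted p = 6.3e-27) and TAF15 from 102 to 45.3 CPM (-1.17, adjusted p = 5.54e-28). With siRBM39 in 4OHT their values were -0.08 and -0.08, neither called. The 3 that rose most with siSF3B1 in 4OHT were MBNL2 (1.02, adjusted p = 3.15e-13), HNRNPDL (0.88, adjusted p = 7.09e-26) and HNRNPA0 (0.68, adjusted p = 5.36e-12). With siRBM39 in 4OHT the largest falls were those of HNRNPAB (-0.45, adjusted p = 1.89e-07), MATR3 (-0.35, adjusted p = 5.94e-07) and CELF1 (-0.30, adjusted p = 0.000393), and the largest rises those of HNRNPM (0.50, adjusted p = 6.79e-05), HNRNPA3 (0.49, adjusted p = 1.86e-14) and HNRNPUL1 (0.30, adjusted p = 2.58e-07). HNRNPM fell with siSF3B1 in 4OHT (-0.47, adjusted p = 7.77e-05).

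Cassette exons in 12 genes with exons known to respond to PTB or hnRNP proteins were read next, and 29 exons in 10 of these genes were tested. Every tested cassette exon of these genes was taken, whether or not it is one known to respond. With siSF3B1 4 were higher and 7 lower in DMSO, and 2 higher and 8 lower in 4OHT, where 26.8% and 30% of all exons were called. With siRBM39 5 were higher and 3 lower in DMSO, and 6 higher and 3 lower in 4OHT, where 8.03% and 9.19% of all exons were called. With RAS activation 4 were higher and 2 lower, where 1.42% of all exons were called (0.404% higher, 1.02% lower). TPM1, which encodes a tropomyosin of the actin filament, has 2 exons of 76 nt, and each moved in opposite directions with the 2 knockdowns. Where inclusion of 1 of them rose, that of the other fell by a similar amount. They are therefore not separate findings. Both enter the DMSO counts above, and also any 4OHT or RAS activation count in which both were called. The first of them, included in 36.3 ± 4.16% of reads in DMSO siNT, was at 56.8 ± 5.15% with siSF3B1 (adjusted p = 3.45e-06) and 21.1 ± 2.55% with siRBM39 (adjusted p = 0.000133). The other was at 65.7%, 47.9% and 81.0% (adjusted p = 3.26e-06 and 4.65e-06). In 4OHT the first was at 81.9 ± 3.04% with siNT, 91.3% with siSF3B1 and 58.3% with siRBM39, and the other at 18.3%, 9.74% and 44.1%. A 27-nt exon of MAX rose from 39.1% to 53.5% in DMSO and from 36.7% to 56.9% in 4OHT with siRBM39 (adjusted p = 0.00489 and 6.48e-05). A 109-nt exon of FAS, the death receptor, fell from 98.8% to 82.8% in DMSO and from 99.5% to 79.2% in 4OHT with siSF3B1 (adjusted p = 5.82e-11 and 8.88e-14). In 4OHT its 138-nt exon fell by 15.6 points (adjusted p = 8.36e-10) and a 24-nt exon of FLNA, the actin crosslinker filamin A, fell by 12.8 points (adjusted p = 0.000229) with siSF3B1.

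The gene whose 6 group means of log2 CPM ran closest to each of the 10, after centring, was sought among the other 9990 genes. The root mean square distance was 0.03 for HNRNPA2B1 and TACO1 and for HNRNPK and XRN2, and 0.04 for PTBP1 and TCOF1, HNRNPL and ATP5I, and HNRNPD and TMSB10. It was 0.05 for HNRNPA1 and C11orf74 and for HNRNPC and C4orf48, 0.06 for HNRNPH1 and HMGN1, 0.07 for HNRNPU and IAH1, and 0.14 for PTBP2 and LCAT. None of the 10 was the closest gene to another of them. The root mean square spread of a gene's own profile was largest for PTBP2 (0.77) and smallest for HNRNPA2B1 (0.16). Distances of different genes are therefore not directly comparable.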

How the data were processed

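RNA-seq of IMR90 ER:RAS cells was analysed in 48 libraries. Raw counts per gene from vast-tools were deposited by the authors, beside cRPKM, an RPKM value corrected for mappability. For each splicing event the authors deposited PSI in percent, together with a coverage class, reads and, for introns, a p-value for balance between the junctions, which are other values used here as filters. A deposited table of normalised CPM was not used. The submitters' processing notes name edgeR, limma and hg19, but event coordinates lie in GRCh38. Events were therefore located in GRCh37 by exon and intron lengths, without converting coordinates.

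mRNA was tested in R 4.3.3 by edgeR 4.0.16 (quasi-likelihood test, TMM scaling, 6 group means) in 9991 genes holding 10000 or more counts, and CPM are scaled by TMM. PSI was tested by limma 3.58.1 on the logit of 0.01 plus 0.98 of its fraction. Events needed coverage of class VLOW or better throughout, PSI differing by 5 points or more between libraries and, for introns, a balance p of 0.05 or more throughout. Exons and introns shared a fit, and splice site forms had another. Calls required an adjusted p under 0.05 and, for PSI, 5 points. Alternatives included limma-voom, which the study used, DESeq2 1.42.0, other filters, single siRNAs and left-out libraries. Scripts were tested on simulated data.

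All 72 pairs of libraries sharing siRNA and treatment differed by more than sampling noise (a chi-square of 2.00 or more for each degree of freedom). The genes, lists and tests were chosen with earlier results of these data known, so counts over the lists are descriptions. All called events of the 10 genes were named. From the other regulators the 3 largest rises and the 3 largest falls in 4OHT with each knockdown were named, except for 1 gene that is not reported here, and from the target genes the 3 called exons with the largest change in each knockdown comparison. Introns outside the balance filter, the 78-nt PTBP2 exon and events without a call were singled out after their values were seen. In the lists 6 genes were matched by gene ID and PECAM1 had no row. The depth of 31467221 to 52734636 counts limits precision, and reads behind a PSI cover counting error only.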

Additional observations from a re-analysis of the deposited data

Results flagged for a closer look

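A library far from the other 7 of its group was found in 16 of 126 sets of 8 values (10 mRNAs and 11 events in 6 groups). The fourth 4OHT replicate of siRBM39-08 accounted for 4 of them: HNRNPA1 at 57.4 CPM (others 47.7 to 50.8), HNRNPK at 379 CPM (others 543 to 615), HNRNPL at 365 CPM (others 281 to 314) and the PTBP1 57-nt exon at 74.9% (others 83.3% to 88.8%). Apart in mRNA were also HNRNPA1 in DMSO siRBM39 at 97.5 CPM, HNRNPC in DMSO siNT at 282 CPM, HNRNPH1 in 4OHT siNT at 144 CPM, HNRNPK in DMSO siRBM39 at 547 CPM and PTBP2 in 4OHT siSF3B1 at 14.5 CPM. In splicing, the PTBP1 34-nt exon had 88.0% in a 4OHT siNT library, and the HNRNPA2B1 120-nt exon 90.9% in a 4OHT siRBM39 library. The HNRNPA2B1 81-nt exon was at 99.7% in a 4OHT siNT library and at 99.6% in a 4OHT siRBM39 library, with the others at 100%. The HNRNPH1 149-nt intron had 4.81% in a DMSO siRBM39 library. The PTBP1 93-nt intron had 0.93% in a 4OHT siNT library, with the others at 0%, and 21.3% in a DMSO siSF3B1 library.

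The effect of a knockdown differed between treatments, by the test of that difference in edgeR, for 7 mRNAs. Of all 9991 genes tested, 37.8% differed in this way for siSF3B1 and 14.1% for siRBM39. For siSF3B1, the log2 fold change in 4OHT minus that in DMSO was 0.23 for HNRNPA1, 0.17 for HNRNPC, -0.32 for HNRNPK, -0.32 for HNRNPU and -0.22 for PTBP1. For siRBM39 it was -0.35 for HNRNPH1 and 0.32 for PTBP2. Against the siNT1 controls alone the call was lost for HNRNPA1, HNRNPC, HNRNPH1 and PTBP2 (adjusted p = 0.29, 0.051, 0.096 and 0.19 in edgeR).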

How the results depend on the processing

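The count of changed mRNAs among the 10 genes stayed at 9, 9, 7, 8 and 9 (siSF3B1 in DMSO and 4OHT, siRBM39 in DMSO and 4OHT, and 4OHT against DMSO) within 1.5 times under every alternative except a required change of 2-fold, which left 1, 2, 0, 1 and 1, and 0 and 0 for the differences of the siSF3B1 and siRBM39 effects between treatments. Those differences, 5 and 2 in the main test, became 3 and 0 with siNT1 controls alone, 3 and 1 with siNT2 controls alone, and 3 to 5 and 0 to 2 with a replicate number or the library that stood apart left out. Leaving out replicates gave 9, 8 to 9, 6 to 7, 7 to 8 and 8 to 9 mRNAs, and 11, 10 to 11, 5, 4 to 5 and 0 called events in the same order. Without the balance filter 18 and 20 events were called with siSF3B1 in DMSO and 4OHT in place of 11 and 11, because more introns entered. The value of HNRNPA1 with siSF3B1 in 4OHT turned from 0.02 to -0.10 with siSF3B1-13 alone, and the cause was not tested. The replicate block changed no count, with 9, 9, 7, 8, 9, 5 and 2 mRNAs and 11, 11, 5, 5, 0, 0 and 0 events. Deviations of same-numbered libraries correlated at -0.175 to 0.337, and 7 of 20 correlations were over 0.1. These values do not settle whether the replicate numbers pair some of the libraries, and the main test does not use them. Among single members' values, 94 of 1120 for mRNA and 12 of 2541 for PSI lost their call under an alternative, and 17 and 11 gained one. Low read counts limit PTBP2 splicing, where 0 of 30 events reached the coverage limit.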
